A study of Homo sapiens with 4 samples.

Results

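The genes described here, in untreated HaCaT cells, act in base excision repair and single-strand break repair: PARP1, PARP2, XRCC1, LIG3, POLB, APEX1, OGG1, UNG, MUTYH and NTHL1. These 10 genes were taken by name, and each had 1 protein-coding row among the 44591 rows of the gene tables. RNA-seq was performed in 4 replicates of HaCaT, a spontaneously immortalized keratinocyte line from human skin that grows as a dividing culture. All 4 replicates share the same condition, with 12% fetal bovine serum according to the labels and no treatment, so there was no comparison group. The methods of the study give 10% serum for HaCaT culture, and the difference is not explained. The study called the replicates biological repeats. Levels are given as TPM over protein-coding genes (reads per base of gene length, scaled so that the protein-coding genes of a library sum to 1000000), since this unit allows genes of different length to be compared.

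Base excision repair removes small lesions such as oxidized, deaminated or alkylated bases. A DNA glycosylase cuts the damaged base from its sugar, an AP endonuclease opens the backbone at the empty site, a polymerase fills the gap and a ligase seals it. The same late steps close the single-strand breaks that oxygen radicals and ionizing radiation make directly. PARP1 and PARP2 sense such breaks and build chains of ADP-ribose, which bring in the scaffold protein XRCC1 with its partners. In skin, oxidized bases arise from ultraviolet light and from normal metabolism.

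The total count was between 17056035 and 73082279 per replicate, with replicate 1 the deepest. Protein-coding genes took 76.1% of the counts in replicate 1 and 95.3% to 96.4% in the others, and replicate 1 is therefore given separately wherever it changes a result. All 8 keratinocyte markers searched were above 1 TPM on average, with a sum of 11244 to 15152 TPM per replicate. The sums of 6 fibroblast, 4 melanocyte, 4 immune and 3 endothelial markers reached at most 9.60, 3.52, 8.92 and 2.36 TPM. Of these, 2 fibroblast markers (COL1A1 with 3.96 and LUM with 1.23), 1 melanocyte marker (PMEL, 1.97) and 1 immune marker (CD14, 6.25) were above 1 TPM on average. TYR and PECAM1 were at 0 in every replicate.

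The regions around the start sites of PARP2, APEX1, UNG and NTHL1 are shown because the results return to them. PARP2 shares its start region with RPPH1, the RNA component of RNase P, whose counts differed widely between libraries. APEX1, UNG and NTHL1 were the members that were highest in replicate 3. The sequences are those of RefSeq on GRCh38.p14, from 250 bases before the start to 50 after it, on the strand of the gene. Such windows were found for 9 of the 10 members (12 windows, since UNG has 2 and MUTYH 3), and not for POLB.

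In the PARP2 window (chr14:20343385-20343684, plus strand), capitals mark the octamer ATGCAAAT, 134 bases before the start, and TGACGTCA, the binding letters of CREB-type factors, 14 bases before it. RPPH1 runs the other way, and the first 27 bases of its gene lie, on the minus strand, in the first 27 bases of this window.
PARP2: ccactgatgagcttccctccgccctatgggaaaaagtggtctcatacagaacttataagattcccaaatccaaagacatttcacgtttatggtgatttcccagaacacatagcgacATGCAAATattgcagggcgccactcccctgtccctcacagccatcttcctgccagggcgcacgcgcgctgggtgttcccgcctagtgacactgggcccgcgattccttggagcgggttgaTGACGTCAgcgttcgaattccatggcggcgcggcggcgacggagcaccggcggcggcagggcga

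In the windows of APEX1 (chr14:20454976-20455275, plus strand), the downstream start of UNG (chr12:109097922-109098221, plus strand) and NTHL1 (chr16:2047785-2048084, minus strand), capitals mark CACGTG, the E-box that reads the same on both strands.
APEX1: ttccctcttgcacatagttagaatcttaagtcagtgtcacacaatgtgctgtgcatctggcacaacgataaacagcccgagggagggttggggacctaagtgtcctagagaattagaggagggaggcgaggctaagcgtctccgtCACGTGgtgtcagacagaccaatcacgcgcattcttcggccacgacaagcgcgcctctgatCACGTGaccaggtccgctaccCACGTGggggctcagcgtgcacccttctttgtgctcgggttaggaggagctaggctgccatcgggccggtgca
UNG: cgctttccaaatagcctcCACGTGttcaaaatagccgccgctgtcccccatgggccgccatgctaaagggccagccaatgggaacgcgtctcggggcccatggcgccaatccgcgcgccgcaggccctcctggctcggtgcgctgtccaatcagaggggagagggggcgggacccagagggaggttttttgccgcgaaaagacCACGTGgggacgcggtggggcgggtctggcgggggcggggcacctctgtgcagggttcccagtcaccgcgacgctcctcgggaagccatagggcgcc
NTHL1: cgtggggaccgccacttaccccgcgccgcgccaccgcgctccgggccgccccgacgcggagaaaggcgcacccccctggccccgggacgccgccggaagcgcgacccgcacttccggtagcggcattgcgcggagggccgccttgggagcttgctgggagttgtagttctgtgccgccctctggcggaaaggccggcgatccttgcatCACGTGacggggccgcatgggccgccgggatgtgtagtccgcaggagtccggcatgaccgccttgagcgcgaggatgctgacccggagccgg

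The motif CACGTG occurred 3 times in the window of APEX1, 2 times in that of UNG and once in that of NTHL1. Among 20534 windows of protein-coding genes, 8.34% held it, and 4 of the 12 windows of members did. It was found in the windows of 3 of 3 members that were highest in replicate 3 and of 1 of 6 others with a window, LIG3. The motif was chosen after these values were seen, so this split is no test of a link between motif and replicate. The share of windows with CACGTG among all genes highest in replicate 3 is not given here. GGGCGG, read on both strands as the core of a GC box, was found in 8 of the 9 members (10 of their 12 windows) and in 57.1% of all windows. CCAAT was found in 5 of the 9 members (7 of their 12 windows), against 34.6% of all windows. TATAAA was in none of the 12 windows and in 9.18% of all windows. TGACGTCA and ATGCAAAT, both found only in PARP2 among the members, were present in 2.25% and 1.52% of all windows. Each motif was searched on both strands, and CACGTG and TGACGTCA read the same on either. These matches describe the letters of the windows and no binding was measured.

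All 10 genes were expressed, with mean levels that ran from 8.97 TPM for OGG1 to 302 TPM for APEX1. Each had a mean above 1 TPM, as had 63.3% of the 19231 protein-coding genes. The 10 genes summed to 716 ± 128 TPM (SD, n = 4), with 526, 767, 810 and 761 in replicates 1 to 4. Replicate 1 was the lowest of the 4 and the other sums lay close together. APEX1 alone took 41.4% ± 6.22 (SD, n = 4) of this sum and PARP1 20.7% ± 3.81 (SD, n = 4), so that both together made up 62.1% ± 5.32 (SD, n = 4). In 7 of the 10 genes the mean was above the median of the 12164 protein-coding genes with a mean above 1 TPM. The plot of TPM by replicate shows the order of the genes.

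**Figure D1:**
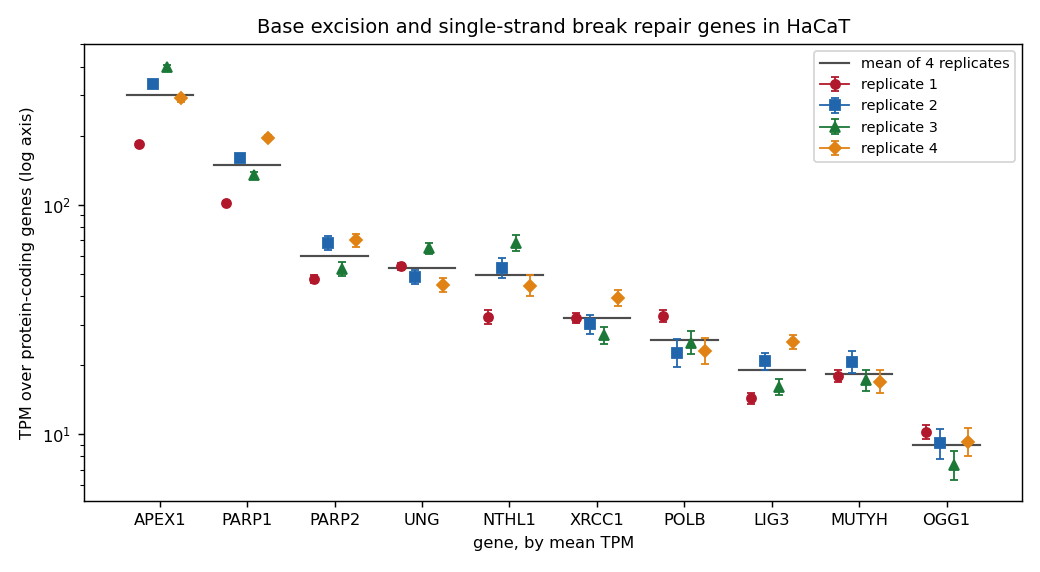
TPM over protein-coding genes (log axis) of the 10 genes, ordered by mean. Each point is 1 replicate, bars are 95% Poisson intervals of the count and the line is the mean of 4 replicates. APEX1 leads in each replicate, with its lowest value, 183, in replicate 1, and OGG1 is lowest in each.

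APEX1, the main AP endonuclease, opens the backbone at sites that have lost their base and also acts as a redox factor for transcription factors. The gene lies on chromosome 14 from 20923290 to 20925931 on the plus strand (positions as in the files, on hg19 according to the labels). It had 183, 335, 397 and 292 TPM in replicates 1 to 4, from 3373 to 6912 counts. Replicate 3 was highest and replicate 1 lowest, and all 4 counting intervals lay apart from one another. The mean was 302 ± 90.1 TPM (SD, n = 4), at percentile 96.2 of the protein-coding genes with a mean above 1 TPM. In each replicate APEX1 was above APEX2, its minor relative, which had 67.1 ± 21.1 TPM (SD, n = 4). APEX1 was the highest member in 4 of 4 replicates per length. By read counts without length PARP1 (3985 bp, against 1553 bp for APEX1) was higher in replicates 1, 2 and 4, with 9889, 4222 and 5827 counts against 6912, 3458 and 3373.

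The 4 glycosylases differed widely in level. UNG, which removes uracil from DNA, had 53.9, 48.6, 64.5 and 44.8 TPM in replicates 1 to 4, a mean of 52.9 ± 8.58 TPM (SD, n = 4). It is on chromosome 12 from 109535399 to 109548798, and its row does not separate the nuclear from the mitochondrial form. NTHL1 (chromosome 16, 2089816 to 2097870, minus strand), the glycosylase for oxidized pyrimidines, had 32.4, 53.0, 68.1 and 44.4 TPM, a mean of 49.5 ± 15.0 TPM (SD, n = 4). Both were highest in replicate 3, while replicate 1 was the lowest value of NTHL1 and the next highest of UNG.

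MUTYH, which removes adenine paired with oxidized guanine, had 18.0, 20.7, 17.2 and 16.95 TPM in replicates 1 to 4, a mean of 18.2 ± 1.72 TPM (SD, n = 4). It lies on chromosome 1 from 45794914 to 45806142 on the minus strand. Its coefficient of variation was 9.45%, and in 0 of 6 pairs of replicates did the counting intervals lie apart. OGG1 (chromosome 3, 9791628 to 9808353), which removes oxidized guanine itself, had 10.2, 9.10, 7.32 and 9.25 TPM, a mean of 8.97 ± 1.21 TPM (SD, n = 4). OGG1 was the lowest member in every replicate, from 172 to 706 counts, and its values overlapped those of no other member. Among 11 glycosylases, those of the pathway list included, UNG ranked 2, NTHL1 3, MUTYH 7 and OGG1 10 by mean. MPG, the glycosylase for alkylated bases, ranked 1 with 90.2 ± 12.6 TPM (SD, n = 4), and NEIL1, an oxidized-base glycosylase, ranked 11 with 6.88 ± 3.44 TPM (SD, n = 4).

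PARP1, the main sensor of single-strand breaks, had 102, 159, 135 and 196 TPM in replicates 1 to 4, from 4222 to 9889 counts. Replicate 4 was highest and replicate 1 lowest, and the counting intervals of all 4 lay apart. The mean was 148 ± 39.7 TPM (SD, n = 4), at percentile 90.9 of the protein-coding genes with a mean above 1 TPM. The gene is on chromosome 1 from 226548392 to 226595801 on the minus strand. Its pseudogenes PARP1P1 and PARP1P2 had at most 3 counts in any replicate, and UNGP3, a pseudogene of UNG, had 102, 5, 1 and 2.

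PARP2, the smaller enzyme that also senses breaks, had 47.5, 68.0, 52.5 and 70.0 TPM, a mean of 59.5 ± 11.2 TPM (SD, n = 4). Replicates 2 and 4 were high and replicates 1 and 3 low, the same order of replicates as for PARP1. The gene lies on chromosome 14 from 20811773 to 20826063 on the plus strand. In the files it starts 202 bases from RPPH1, which runs away from it on the minus strand (20811230 to 20811570). RPPH1 had 1753394, 625, 9181 and 7 counts in replicates 1 to 4, or 23992, 36.6, 465 and 0.367 per 1000000 counted reads. PARP2 had 2178, 853, 890 and 984 counts, or 29.8, 50.01, 45.1 and 51.6 per 1000000 counted reads. The highest value of RPPH1 was 65409 times the lowest, which rests on 7 counts in replicate 4, and 655 times the lowest without that replicate. For PARP2 these ratios were 1.73 and 1.68, with replicate 1 at the top for RPPH1 and at the bottom for PARP2. The total used here holds all counted reads, those of RPPH1 included. In TPM over protein-coding genes the highest value of PARP2 was 1.47 times the lowest. RPPH1 is a short RNA without a poly(A) tail, made by RNA polymerase III. How each library selected its RNA is not given in the sources used here, and its part in these counts was not tested.

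**Figure D2:**
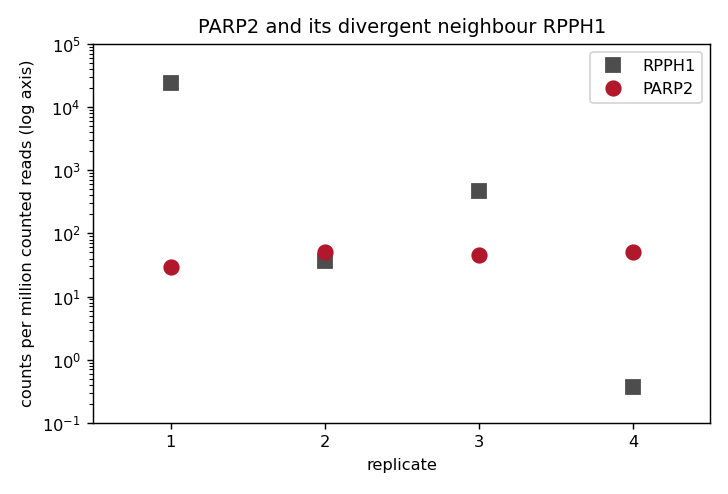
Counts per 1000000 counted reads (log axis) of PARP2 (circles) and of RPPH1 (squares), which starts 202 bases away on the other strand, in replicates 1 to 4. RPPH1 runs from 0.367 in replicate 4 to 23992 in replicate 1, while PARP2 stays between 29.8 and 51.6.

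XRCC1 is the scaffold that holds LIG3 and POLB at a break and carries no catalytic activity. It had 32.0, 30.1, 26.9 and 39.4 TPM in replicates 1 to 4, a mean of 32.1 ± 5.29 TPM (SD, n = 4), and lies on chromosome 19 from 44047464 to 44079730 on the minus strand. Replicate 4 stood above the others. LIG3, the ligase that seals the nick in the nucleus and in mitochondria, had 14.3, 20.8, 16.1 and 25.3 TPM, a mean of 19.1 ± 4.93 TPM (SD, n = 4). It lies on chromosome 17 from 33307517 to 33332088, and its replicates followed the order seen for PARP1 and PARP2, with replicate 4 highest and replicate 1 lowest.

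POLB, the polymerase that fills the gap of a single nucleotide and removes the sugar remnant, had 32.7, 22.6, 25.0 and 23.1 TPM in replicates 1 to 4. The mean was 25.8 ± 4.67 TPM (SD, n = 4), from 200 to 1059 counts. The gene lies on chromosome 8 from 42195973 to 42229331. Replicate 1 was the highest of the 4, and without it the 3 values lay between 22.6 and 25.0.

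Of the 9 pairs of neighbours in the order of mean levels, 4 kept their order in every replicate. APEX1 was above PARP1, PARP1 above PARP2, NTHL1 above XRCC1 and MUTYH above OGG1 in 4 of 4 replicates. Of these, the ranges of PARP1 and PARP2 and those of MUTYH and OGG1 over the replicates did not overlap. On the log2(TPM + 1) scale PARP1 exceeded PARP2 by 1.28 ± 0.17 (SD, n = 4; p = 0.13 in an exact permutation of signs, two-sided, and p = 0.28 adjusted over the 9 neighbours). The difference between APEX1 and PARP1 was 1.00 ± 0.41 (SD, n = 4; exact p = 0.13), and that between MUTYH and OGG1 was 0.95 ± 0.20 (SD, n = 4; exact p = 0.13). With 4 replicates this test cannot give a p below 0.125, so no pair could pass 0.05. NTHL1 exceeded XRCC1 by 0.57 ± 0.60 (SD, n = 4; exact p = 0.13), and in replicate 1 by only 0.02. PARP2, UNG and NTHL1 formed a group without order, since PARP2 was above UNG in 2 of 4 replicates and UNG above NTHL1 in 2 of 4. LIG3 was above MUTYH in 2 of 4, and XRCC1 above POLB and POLB above LIG3 in 3 of 4. The order also rested on the length used for each gene. With the longest coding transcript of GENCODE release 29 (8400 bp in place of 3900 bp for LIG3), LIG3 fell to the lowest place, below OGG1, with 9.33 ± 2.21 TPM (SD, n = 4).

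Ratios between genes were read within each library, where they depend on neither depth nor scaling. Per kilobase, PARP1 had 2.15 times the reads of PARP2 in replicate 1 (95% Clopper-Pearson interval 2.05 to 2.25). Replicates 2 to 4 followed with 2.34 (2.18 to 2.53), 2.58 (2.40 to 2.77) and 2.80 (2.62 to 3.003). These intervals and the Poisson intervals above hold counting error alone, and PCR copies of 1 molecule are counted again. The ratio lay between 2.15 and 2.80, with the intervals of replicates 1 and 4 apart. The level of PARP1 itself spread 1.92-fold and that of PARP2 1.47-fold.

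LIG3 and XRCC1, which form a complex, had a ratio of 0.448 (0.416 to 0.481) in replicate 1 and of 0.693 (0.609 to 0.789), 0.596 (0.528 to 0.673) and 0.641 (0.575 to 0.715) in replicates 2 to 4. Replicate 1 lay below the other 3, whose intervals overlapped. The log2(TPM + 1) difference was -0.74 ± 0.26 (SD, n = 4; exact p = 0.13, and p = 0.14 adjusted over the 10 fixed pairs). Without length correction it turned to 0.12 ± 0.27 (SD, n = 4), as LIG3 is listed with 3900 bp and XRCC1 with 2102 bp. POLB stood at 1.02 (0.943 to 1.10) times XRCC1 in replicate 1, and at 0.750 (0.631 to 0.890), 0.929 (0.803 to 1.07) and 0.587 (0.503 to 0.685) in replicates 2 to 4. With the transcript lengths of GENCODE the difference of POLB from XRCC1 turned from -0.30 ± 0.34 to 0.10 ± 0.34 (SD, n = 4), and either value is within the spread between replicates.

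The step from the AP endonuclease to the polymerase showed the widest gap among the fixed pairs of members. APEX1 had 5.61 (5.25 to 5.99) times the reads of POLB per kilobase in replicate 1, and 14.9 (12.9 to 17.2), 15.9 (14.1 to 17.9) and 12.6 (11.0 to 14.5) times in replicates 2 to 4. The interval of replicate 1 lay apart from all others. FEN1, the flap nuclease of the long-patch branch, had 4.95 (4.64 to 5.28) times the reads of POLB in replicate 1 and 12.1 (10.5 to 14.1), 15.8 (14.1 to 17.8) and 8.68 (7.59 to 9.96) times in the others. LIG1, the ligase of the long-patch branch and of replication, was above LIG3 in 4 of 4 replicates, with ratios from 1.79 (1.64 to 1.95) in replicate 4 to 2.39 (2.17 to 2.64) in replicate 3. APEX1 had 3.68 to 5.40 times the reads of APEX2.

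Among the glycosylases, each of the other 3 was above OGG1 in 4 of 4 replicates. NTHL1 over OGG1 was 3.17 (2.86 to 3.51) in replicate 1 and reached 9.31 (7.90 to 11.0) in replicate 3. UNG over OGG1 was between 4.84 (4.13 to 5.69) and 5.34 (4.52 to 6.33) in replicates 1, 2 and 4, and 8.82 (7.56 to 10.3) in replicate 3. MUTYH over OGG1, the pair that removes oxidized guanine or the adenine paired with it, was between 1.76 (1.59 to 1.94) and 2.35 (1.97 to 2.83).

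**Figure D3:**
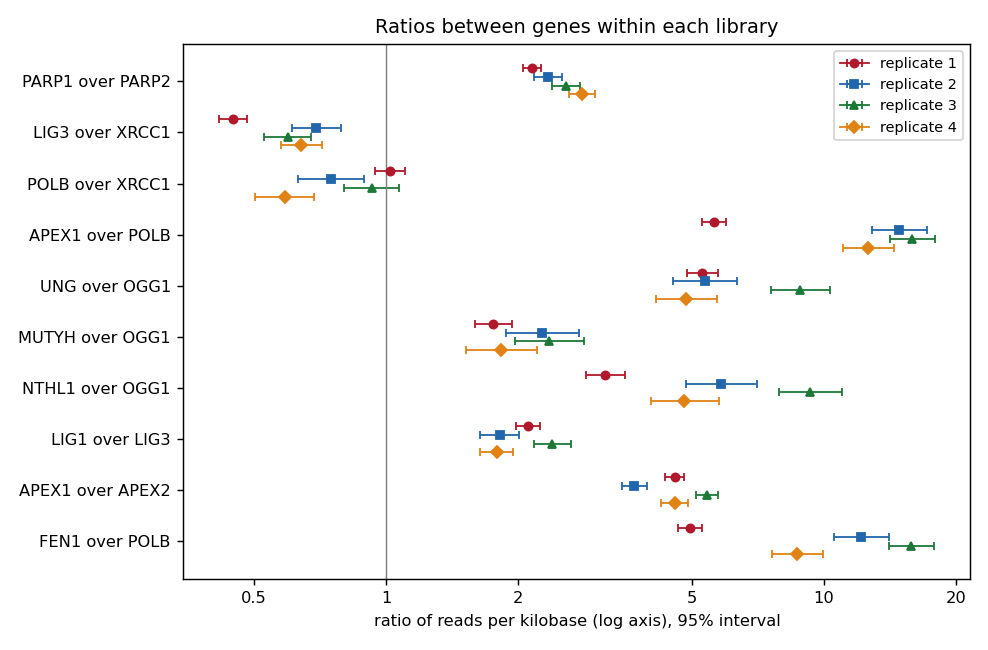
Ratios of reads per kilobase between 10 pairs of genes (log axis), with 95% Clopper-Pearson intervals that hold counting error alone, in replicates 1 to 4. LIG3 over XRCC1 lies below 1 in each replicate, and the ratios of APEX1 and FEN1 to POLB are lowest in replicate 1, at 5.61 and 4.95.

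The 10 genes did not vary together across the replicates. APEX1, UNG and NTHL1 were highest in replicate 3, PARP1, PARP2, LIG3 and XRCC1 in replicate 4, POLB and OGG1 in replicate 1, and MUTYH in replicate 2. That is 3, 4, 2 and 1 of 10 genes, where 13.3%, 23.3%, 40.2% and 23.3% of all protein-coding genes with a mean above 1 TPM were highest in replicates 3, 4, 1 and 2. On the log2(TPM + 1) scale, replicate 3 was above the gene's own mean by 0.45 for APEX1, 0.50 for NTHL1 and 0.29 for UNG. PARP1, LIG3 and PARP2 had the same order of replicates, 4, 2, 3 and 1, and replicate 4 was above the own mean by 0.44, 0.42 and 0.25. XRCC1, the partner of LIG3, was 0.30 above its mean in replicate 4 but did not share the low value of replicate 1.

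Other values moved beside these patterns. The protein-coding genes that were highest in replicate 3 had a median length of 2034 bp, against 3507 bp for those highest in replicate 1, 3545 bp for replicate 2 and 3636 bp for replicate 4. Their median GC content was 43.1% for the genes highest in replicate 1 and 53.7%, 53.8% and 53.6% for those of replicates 2 to 4, and POLB and OGG1, highest in replicate 1, have 44.2% and 54.4%. APEX1, UNG and NTHL1 are listed with 1553, 2366 and 1070 bp, and PARP1, PARP2, LIG3 and XRCC1 with 3985, 1887, 3900 and 2102 bp. The summed TPM of MCM2 to MCM7, the helicase of replication, was 689, 1104, 1344 and 1031 in replicates 1 to 4, while that of all 8 proliferation markers (these with MKI67 and TOP2A) was 1379, 1487, 1483 and 1658. The part of gene length, of GC content and of cell growth in the replicate patterns was not tested.

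**Figure D4:**
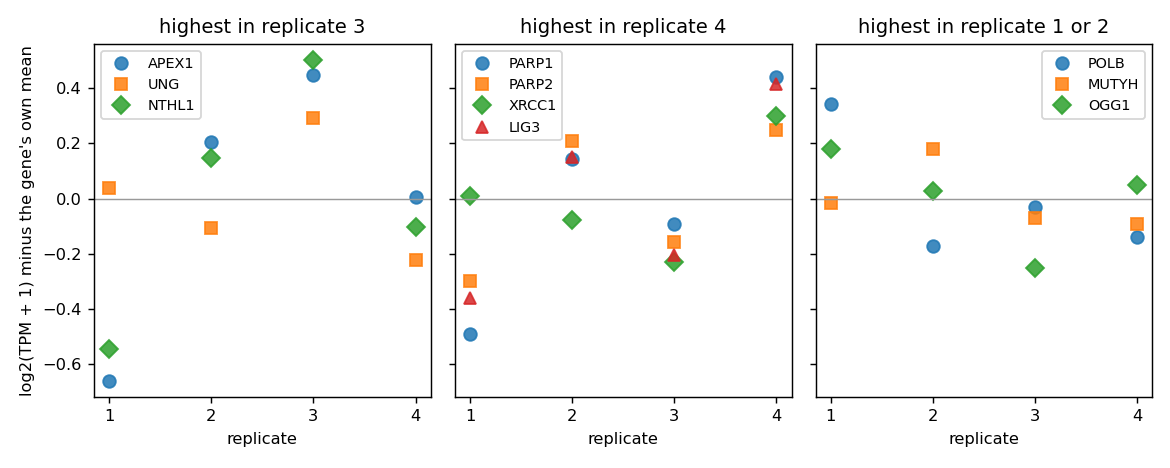
Difference of log2(TPM + 1) from each gene's own mean over 4 replicates, in panels by the replicate in which the gene was highest. APEX1 and NTHL1 share a low value in replicate 1 and a high one in replicate 3, and PARP1, PARP2 and LIG3 run in the order of replicates 4, 2, 3 and 1.

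Replicate 1 differed from the mean of the other replicates by less than 2-fold for each of the 10 genes. Among the protein-coding genes with a mean above 1 TPM, 20.1% were at least 2-fold lower in replicate 1 and 17.4% at least 2-fold higher. The log2 difference was -0.88 for APEX1, -0.73 for NTHL1 and -0.66 for PARP1, the 3 members at least 1.5-fold lower, where 30.1% of all genes were that much lower. None was at least 1.5-fold higher, against 30.5% of all genes, and POLB came nearest with 0.46. In TPM over all gene types, 9 of the 10 members were at least 2-fold apart (64.3% of all genes), and in replicate 1 RPPH1 alone took 2.40% of the counts. That share is taken before division by gene length. The share of RPPH1 in TPM over all gene types, where a short RNA weighs more per read, is not given. The GC content of the longest coding transcript was 63.8% for NTHL1, 50.5% for APEX1, 49.6% for PARP1 and 44.2% for POLB, and 60.5% for MUTYH and 58.3% for XRCC1, which differed by -0.02 and 0.01. The part of GC content was not tested.

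The spread over replicates was described by the coefficient of variation. Its median was 18.4% in the 10 genes, against 37.8% over all 12164 genes and 34.0% over the 8707 genes with a mean between those of OGG1 and APEX1. In TPM over all gene types the median was 47.2% in the 10 genes and 49.1% over all genes, so the gap nearly closed with that total. With upper-quartile scaling it was 20.9% against 37.2%. Without replicate 1 it was 17.2% against 24.7%. Over the genes in the level range of the members these 3 medians were 48.2%, 33.6% and 21.7%, so the gap without replicate 1 was smaller there. With all 4 replicates NTHL1 (30.4%) and APEX1 (29.9%) had the highest values and MUTYH (9.45%) and OGG1 (13.5%) the lowest, but this order rested on single libraries. Without replicate 1, APEX1 had 15.5%, LIG3 was highest with 22.2% and POLB lowest with 5.47%. The lowest was OGG1 (6.37%) without replicate 3, XRCC1 (8.64%) without replicate 4, and POLB (30.3%, against 40.9% for MUTYH) in TPM over all gene types. Counting intervals lay apart for all 6 pairs of replicates of APEX1 and PARP1 and for 1 of 6 of OGG1, but they are narrow at high counts and hold no error from culture or library.

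Around these genes, 38 of 39 others of the pathway had a mean above 1 TPM, as had 63.3% of all protein-coding genes. The same 38 were above 1 TPM in every replicate, for which the share of all genes is not given. The exception was APLF, a break-processing nuclease and histone chaperone, with 0.946 ± 0.526 TPM (SD, n = 4), and the next lowest were PARP3 with 4.80 ± 0.898 and NEIL1 with 6.88 ± 3.44 TPM (SD, n = 4). PCNA, the sliding clamp of the long-patch branch and of replication, was highest with 637 ± 164 TPM (SD, n = 4) and the only one above APEX1 by mean. FEN1 had 258 ± 103 TPM (SD, n = 4). HMGB1, a chromatin protein that acts as a cofactor of base excision repair, had 209 ± 45.9 TPM (SD, n = 4), an uncertain value because its many pseudogenes can share its reads. Also above PARP1 was POLD2, a subunit of DNA polymerase delta, with 206 TPM on average. By role, the median of the mean levels was 111 TPM for 3 genes of the nucleotide pool and cofactors, 69.3 TPM for 11 genes of the long-patch branch (LIG1 among them), 56.4 for 6 polymerase genes, 32.7 for 6 end-processing genes, 20.3 for 7 glycosylases and 19.3 for 6 genes of the ADP-ribose side. Of the 38 genes with a mean above 1 TPM, 16, 8, 9 and 5 were highest in replicates 1 to 4.

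**Figure D5:**
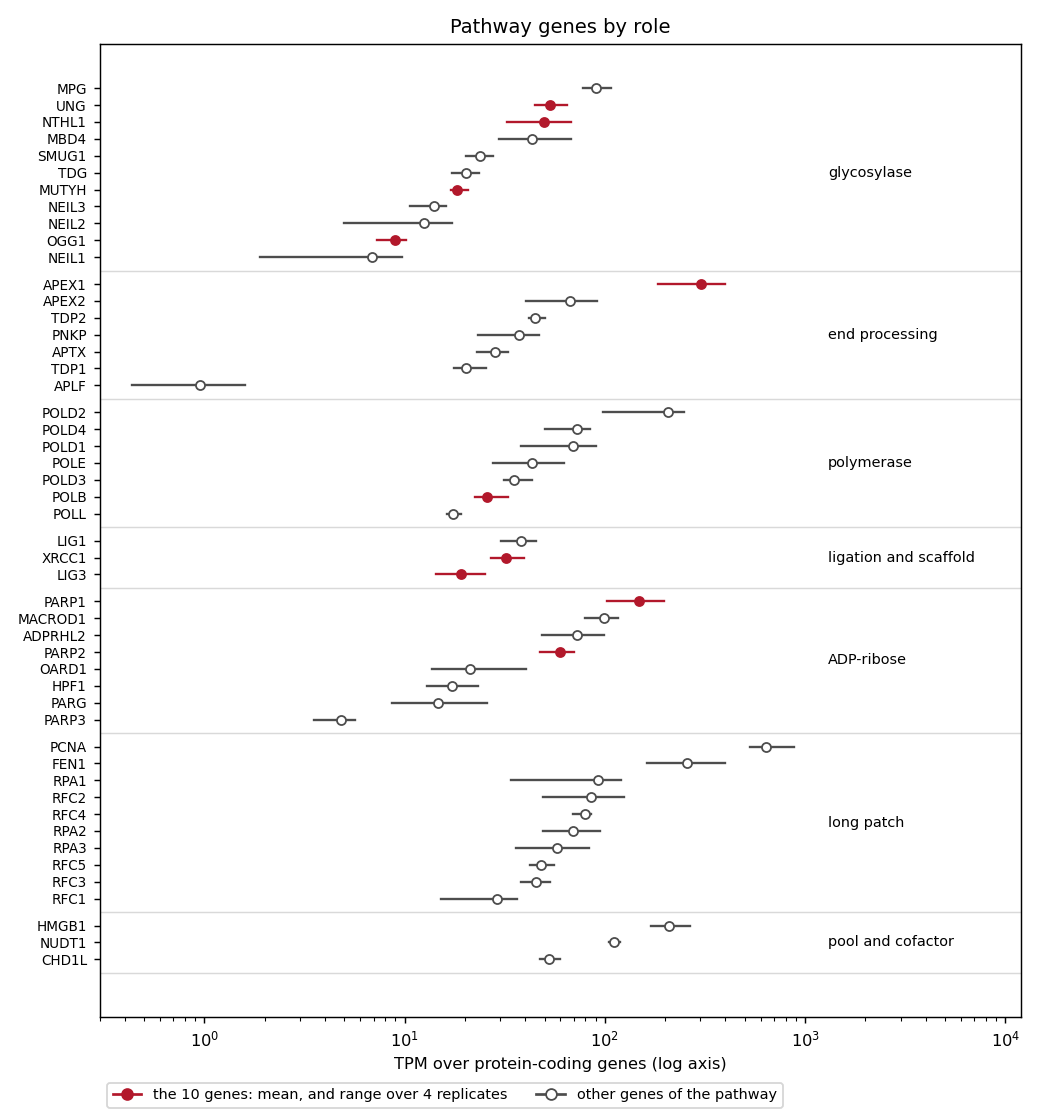
Mean TPM over protein-coding genes (point, log axis) and range over 4 replicates (line) of the 10 genes (filled) and 39 others of the pathway (open), by role, with LIG1 shown beside LIG3 and XRCC1. APEX1 leads the end-processing genes and PARP1 the ADP-ribose genes, and OGG1 lies near the bottom of the glycosylases.

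The protein-coding genes whose levels lay nearest to those of PARP1 over the 4 replicates were OGDH, MGAT4B and PIGT. Their root mean square distances on the log2(TPM + 1) scale were 0.11, 0.12 and 0.14, and OGDH had 94.2, 169, 127 and 178 TPM in replicates 1 to 4. Among the members and the pathway list the nearest was NUDT1, which clears oxidized nucleotides from the pool, at a distance of 0.51.

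Genes next to the members could share reads with them, as the use of strand in the counting is not stated. Of the 10 members, 2 overlapped another protein-coding gene in the positions of the files, both on the opposite strand. OGG1 overlaps CAMK1 over 9325 bases of gene span, and CAMK1 had 92, 78, 92 and 124 counts in replicates 1 to 4. MUTYH overlaps TOE1 over 801 bases at its start, and TOE1 had 831, 271, 379 and 172 counts. APEX1 starts 22 bases from OSGEP and NTHL1 25 bases from TSC2, each a pair that runs apart from a common start region. TMEM55B, on the minus strand, lies 80 bases beyond the end of APEX1. It had 22.8, 29.4, 47.6 and 23.6 counts per 1000000 counted reads in replicates 1 to 4, highest in replicate 3. OSGEP had 21.8, 19.8, 23.9 and 16.4 counts per 1000000 counted reads in replicates 1 to 4. In this unit OSGEP was highest in replicate 3 and lowest in replicate 4. The total of this unit holds all gene types, unlike the TPM used for APEX1 and NTHL1. Protein-coding genes took only 76.1% of the counts in replicate 1, so the order of replicates can differ from that in TPM. TSC2 had 28.2, 78.1, 48.7 and 71.4 counts per 1000000 counted reads in replicates 1 to 4, low in replicate 1 as NTHL1 was, but not highest in replicate 3. For OGG1 and MUTYH, reads of the opposite gene cannot be told apart if strand was not used.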

How the data were processed

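RNA-seq was performed in 4 untreated replicates of HaCaT cells. The authors deposited a count per gene for each replicate, with a gene length, and RPKM for replicates 1 and 2 or TPM for replicates 3 and 4, which follow from count and length. According to the submitters' processing notes the build is hg19 and HISAT2, HISAT, TopHat2 and Bowtie2 were used, in roles and versions not stated. The counting program and the annotation are not given in the sources used here.

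TPM was computed from the deposited counts and lengths over protein-coding rows (19231 symbols). The depth was 17056035 to 73082279 counts. Log2 values carry a pseudocount of 1, which makes differences of low genes smaller. Detected means a mean TPM above 1. Differences between genes were tested within replicates by exact permutation of signs (two-sided), adjusted by Benjamini-Hochberg. Intervals are 95% (exact Poisson for levels, Clopper-Pearson for ratios). Floors of 3 counts were not reached by any member. GC content and alternative lengths came from the longest coding transcript in GENCODE release 29, and unmatched genes kept their length (97.2% matched). Named were the members, the 3 highest and 3 lowest genes of the pathway list, genes of fixed pairs, the 3 nearest to PARP1 and genes that overlap a member. Other genes, RPPH1 among them, and the promoter motifs were chosen after their values were seen. The members and lists were chosen with earlier results of these data known. The call of genes at least 2-fold apart in replicate 1 was tested on simulated counts that held counting error alone. The sign permutation and the ratio interval were checked on fixed inputs, and the other calculations were not simulated. Alternatives were the denominator, length, scaling, pseudocount, filter and left-out replicates. Tools were SciPy 1.17.1, pandas 2.3.3 and NumPy 2.4.6 under Python 3.11.15, with figures by matplotlib 3.10.9.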

Additional observations from a re-analysis of the deposited data

Results flagged for a closer look

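In 38 sets of 4 values, 1 for each replicate, 3 values stood apart from the rest by more than Dixon's 95% critical value, where chance gives 1.90, or 1 in 20. The sets share genes and are not independent. RPPH1, chosen after its values were seen, also passed this value and is not counted among them.

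PCNA had 881 TPM in replicate 3 against 531 to 586 in the others. The log2 difference between UNG and OGG1 was 2.98 in replicate 3 against 2.16 to 2.30 in the others, so that UNG was higher relative to OGG1 in that library. The log2 difference between UNG and NTHL1 was 0.72 in replicate 1, while it lay between -0.12 and 0.01 in replicates 2 to 4. RPPH1, the RNA beside PARP2, had 23992 counts per 1000000 in replicate 1 against 0.367 to 465 in the others. No cause was tested for any of the 4 values.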

How the results depend on the processing

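No paired analysis was possible because there was no other group to pair the replicates with; the differences between genes were already taken within replicates. Over 16 pairs of genes, 166 of 176 alternative values kept their direction. Many of these could hardly turn, since a change of total, scaling or pseudocount acts nearly alike on both genes of a pair. All 10 turned values came from a change of length or from a left-out replicate. Without length correction, LIG3 minus XRCC1 turned to 0.12, APEX1 minus PARP1 to -0.35, PARP2 minus UNG to -0.16, NTHL1 minus XRCC1 to -0.37 and POLB minus LIG3 to -1.04. With GENCODE transcript lengths, POLB minus XRCC1 turned to 0.10 (the same pair as XRCC1 minus POLB, -0.10), PARP2 minus UNG to -0.058 and LIG3 minus MUTYH to -1.22. UNG minus NTHL1 ranged from -0.063 to 0.22 and LIG3 minus MUTYH from -0.13 to 0.15 with each replicate left out, negative without replicate 1 and without replicate 4 respectively. The summed level was 565 in TPM over all gene types and 472 in the deposited mixed units. Without length the share of APEX1 was 29.1%, 2 of 10 members kept their rank and 4 were above the median, and with GENCODE lengths 3 kept their rank. The members at least 2-fold apart in replicate 1 rose from 0 to 9 in TPM over all gene types, and 3 were at least 1.5-fold apart. The replicate in which a member was highest, compared after seeing the data, was the same for 8 of 10 in TPM over all gene types and for 10 of 10 with upper-quartile scaling. The members' median coefficient of variation, also compared after seeing the data, rose to 47.2% in TPM over all gene types. Apart from those that the change of length or total makes by construction, the cause was not tested. For OGG1, POLB and MUTYH, 172 to 353 counts in replicates 2 to 4 limit the precision.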
